A study of Mus musculus with 4 samples.

Results

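Zfp is the mouse name stem for zinc finger proteins, most of them DNA-binding proteins built from repeated C2H2 fingers, in which a pair of cysteines and a pair of histidines hold a zinc ion. Zfp transcripts were examined here as the target part of AGO2-CLASH hybrid (chimeric) reads, in which a miRNA and the RNA next to it on AGO2 are ligated and sequenced as one molecule. Members were all genes whose symbol is Zfp followed by a digit. They made up 144 of the 8440 target genes listed, 558 of 63655 listed alignments, and 342 of 29067 distinct reads when each sequence is counted once per library (410 of 36318 reads with the deposited read counts). In the GENCODE vM21 annotation, 143 of the 144 genes had a complete coding sequence, and 135 of these encoded at least 1 C2H2 finger, with a median of 11 and a maximum of 37. These counts rest on the longest complete coding sequence of each gene, and can miss fingers that lie in another frame or in an incomplete transcript, as in Zfp781 and Zfp968, which count as 0. Among the others at 0, Zfp36 and Zfp36l1 carry CCCH fingers that bind AU-rich mRNA. Zfp36 had 2 reads, both in miR-379KO A, and Zfp36l1 had 2 reads, both in WT A.

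The reads came from untreated primary mesangial cells (MMC), the contractile cells of the kidney glomerulus, cultured from C57BL/6J mice. WT cells and cells of miR-379KO mice, in which part of the miR-379 gene was deleted with CRISPR-Cas9 nickase, gave 2 libraries each, labelled A and B. AGO2 was immunoprecipitated with an AGO2 antibody in all 4 libraries and the bound RNAs were joined with T4 RNA ligase. The labels do not say whether A and B were separate animals or cultures, so the tests measure only the spread between these libraries. Values for the 4 libraries are given in a fixed order, WT A before WT B, then miR-379KO A before miR-379KO B. The libraries held 16324, 7192, 6326 and 6476 chimeric reads, and 3 reads correspond to 1.84 to 4.74 per 10000 in a library. Of 14 mesangial marker genes fixed for the check, 10 were listed, led by Fn1 with 483 reads and Acta2 with 86. Col4a1 had 57, Col4a2 53, Vim 18 and Tagln 13. Pdgfrb had only 4 reads, Des 2, and Myl9 and Serpine2 1 each. Pdgfra, Itga8, Gata3 and Thy1 were not listed. The 5 endothelial, 5 tubular and 4 leukocyte markers had 0 reads, which allows up to 1.84 to 4.74 per 10000 per library, and 3 of the 5 podocyte markers had 5 reads in all.

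Many Zfp proteins of the KRAB class recruit the corepressor TRIM28 and silence transposable elements, and their genes lie in large clusters of near copies that share their finger sequences. In the coding part, neighbouring fingers are joined by a linker of nearly constant sequence, threonine, glycine, glutamate, lysine and proline (TGEKP). Mouse mRNAs also often hold copies of the short interspersed repeats B1 and B2, mostly in their untranslated regions (UTRs). A miRNA is classically read by its seed, the bases near its 5′ end, and a target by the complement of that seed. Both repeats and finger sequences occur in many transcripts, so a short target segment can be listed with several genes.

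The sequences below are the miRNAs that paired most often with Zfp transcripts and for which a mature RefSeq entry was matched. The sequences are those of the RefSeq miRNA table for GRCm38.p6, in which 4 of the 5 leading miRNAs were matched (miR-709 was not). Capitals mark the seed, bases 2 to 8.
miR-690: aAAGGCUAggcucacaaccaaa
miR-1195: uGAGUUCGaggccagccugcuca
miR-7027-3p: uCGGGUUUcucuccucuuccag
miR-706: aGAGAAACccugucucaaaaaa
Each has a different seed.

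The next set is shown because it carries the most frequent pairing, that of miR-690. Each line is the 30-nt stretch of a Zfp transcript, 5′ to 3′, around the place where most of its miR-690 reads fell, and capitals mark the longest run of perfect complementarity to miR-690.
Zfp11: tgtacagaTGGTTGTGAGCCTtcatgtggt
Zfp113: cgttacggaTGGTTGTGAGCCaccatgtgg
Zfp799: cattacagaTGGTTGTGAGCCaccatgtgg
Zfp846: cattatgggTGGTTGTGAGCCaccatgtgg
Zfp646: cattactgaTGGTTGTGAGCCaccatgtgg
Zfp933: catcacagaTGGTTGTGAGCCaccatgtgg
Zfp282: ggcataagaTGGTTGTGAGCCaccatgtgg
In GRCm38, these stretches lie at chr5:129656060-129656089 on the minus strand (Zfp11), chr5:138142501-138142530 on the minus strand (Zfp113), chr17:32818275-32818304 on the minus strand (Zfp799), chr9:20603717-20603746 on the plus strand (Zfp846), chr7:127884622-127884651 on the plus strand (Zfp646), chr4:147823780-147823809 on the minus strand (Zfp933) and chr6:47891568-47891597 on the plus strand (Zfp282). The first 6 are in the 3′ UTR of the listed transcript, and the Zfp282 stretch is in a transcript without a coding sequence. All 30 bases of each stretch are soft-masked as repeat in the reference genome. The reference does not name the repeat family. As background, these letters are those of the B2 repeat read on its opposite strand. In Zfp11, the run covers miRNA positions 8 to 20 (13 nt), and in the other 6 genes positions 9 to 20 (12 nt). Positions 2 to 7 lie outside the run in all 7. The Zfp11 stretch also contains the complement of positions 2 to 7, in letters that overlap the run.

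miR-690 was listed with 131 of the 410 Zfp reads (31.95%), against 6.96% of all chimeric reads. It had 58, 46, 12 and 15 Zfp reads in the 4 libraries. Counted by distinct reads, its share was 27.8% of Zfp reads against 7.16% of the other genes' reads, 46.8% against 6.64%, 23.3% against 5.40%, and 28% against 6.54% in the 4 libraries. The share was higher among Zfp reads in 4 of 4 libraries, by 25.03 ± 10.2 percentage points (SD, n = 4). This comparison was chosen after seeing the data. The exact two-sided sign-flip permutation test over libraries gave p = 0.13, the smallest value 4 libraries allow, so no such comparison could pass 0.05. Among reads listed with a single gene, the difference was 6.14 percentage points (p = 0.25, exact permutation).

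The 105 distinct miR-690 reads were listed with 16 Zfp genes. The miRNA stood before the target in 102 reads, and the whole 22-nt miRNA was aligned in 97. Both parts were in the sense orientation in all 105. By region, 73 target segments lay in a 3′ UTR, 7 in a 5′ UTR, 17 in a noncoding transcript, and 8 in transcripts absent from vM21 under that version, and 97 of the 97 that could be placed were soft-masked. Of the 110 read and gene pairs, 99 held the whole run opposite positions 9 to 20. Segments began a median of 5 nt before the run and ended a median of 29 nt after it. The complement of positions 2 to 7 occurred in 23 pairs, all in Zfp11.

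**Figure D1:**
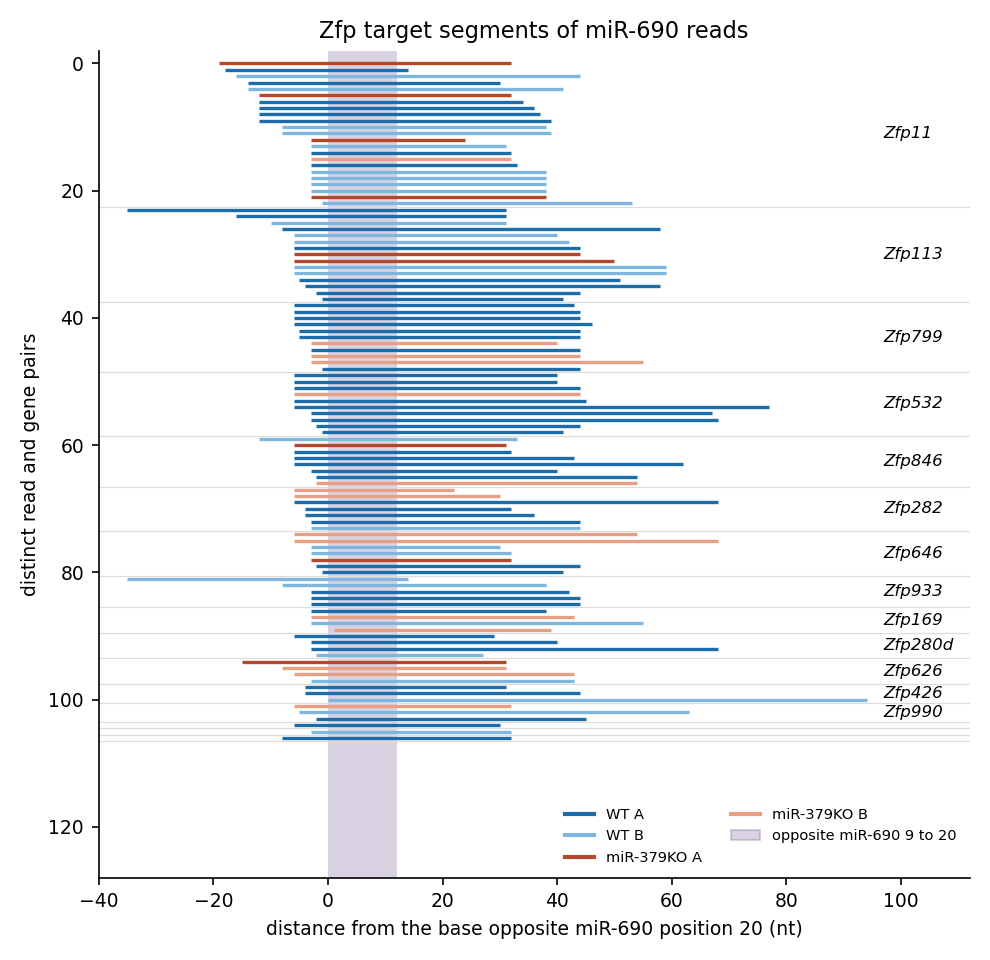
Extent of the Zfp target segments in miR-690 reads (the 107 of 110 read and gene pairs whose longest complementary run overlaps the middle of positions 9 to 20; 1 line each, coloured by library), as distance in nt along the transcript from the base opposite miR-690 position 20; the shaded band marks the 12 bases opposite positions 9 to 20. Segments start a median of 5 nt before the run and end a median of 29 nt after it.

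The 12-base motif TGGTTGTGAGCC, searched on both strands, was present in the sense orientation in 94 of the 105 distinct Zfp reads of miR-690 (89.5%) and in 1411 of 1921 reads of miR-690 with other genes (73.5%). It was found in 1 of 237 Zfp reads with other miRNAs (0.422%) and in 10 of 26804 reads of other genes with other miRNAs (0.0373%). It was in the antisense orientation in 0 reads of the first 3 sets and in 5 of the last. In the genome annotation, the 3′ UTR of the longest coding transcript held the motif in sense in 6 of 139 listed Zfp genes (4.32%). Among other genes that were listed, it did so in 92 of 5545 (1.66%). The motif was in 1 of 239 Zfp genes that were not listed (0.418%), and in 115 of 20301 other genes, listed or not (0.566%). The 6 listed Zfp genes with the motif all belonged to the 16 genes listed with miR-690, and are 37.5% of them. Since the genes were listed because reads with this motif matched them, these shares are a description.

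Many of these segments matched other places in the genome as well as, or better than, the listed gene. Of the 105 distinct miR-690 reads, 83 were listed with more than 1 gene, with a median of 4 genes and up to 67. Of the 100 read and gene pairs whose transcript could be compared, 48 segments were identical to the listed transcript, and 46 of these 48 also had another exact place in the genome. The other 52 differed from it by a mismatch or a gap, and 49 of the 52 had an exact match elsewhere in GRCm38, in every case outside the listed gene. Over 103 distinct segment sequences, the median was 8 exact places and the maximum 5423.

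Zfp11, a C2H2 zinc finger gene, had the most reads of all members. Its reads in the 4 libraries were 11, 19, 6 and 1. All 25 distinct sequences were miR-690 reads and fell on the same place, starting at transcript positions 2422 to 2440 and ending at 2454 to 2493. The 2 WT libraries had the higher counts, the highest in WT B, whereas WT A held the most chimeric reads in all. The fitted log2 ratio of WT over miR-379KO was 1.31 ± 0.93 (SE). Of its 25 segments, 11 were identical to the transcript, and the 14 that differed each had an exact place elsewhere. Only 1 of the 25 reads was listed with Zfp11 alone.

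Zfp113 had 9, 8, 2 and 4 reads in the 4 libraries. Of its 21 distinct reads, all in the 3′ UTR and all soft-masked, 15 were miR-690 reads. Zfp846 had 9, 5, 2 and 1 reads in the same order, with 8 of 13 distinct reads from miR-690. Zfp646 had 3, 6, 1 and 2 reads, and 7 of its 10 distinct reads were from miR-690. Zfp933 had 5, 4, 2 and 1 reads. For these 4 genes, every library held reads and the log2 ratios were 0.62 ± 1.03, 1.22 ± 1.24, 0.77 ± 1.33 and 0.64 ± 1.32 (SE). Zfp799 was found in only 1 library of each genotype, with 10, 0, 0 and 6 reads, and its log2 ratio was -0.38 ± 1.17. The 2 libraries without Zfp799 reads allow up to 4.17 per 10000 (WT B) and 4.74 per 10000 (miR-379KO A). Zfp532 had 9, 0, 0 and 1 reads, all with miR-690. Zfp282 had 7, 2, 0 and 2 reads, and Zfp169 had 2, 2, 0 and 2.

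**Figure D2:**
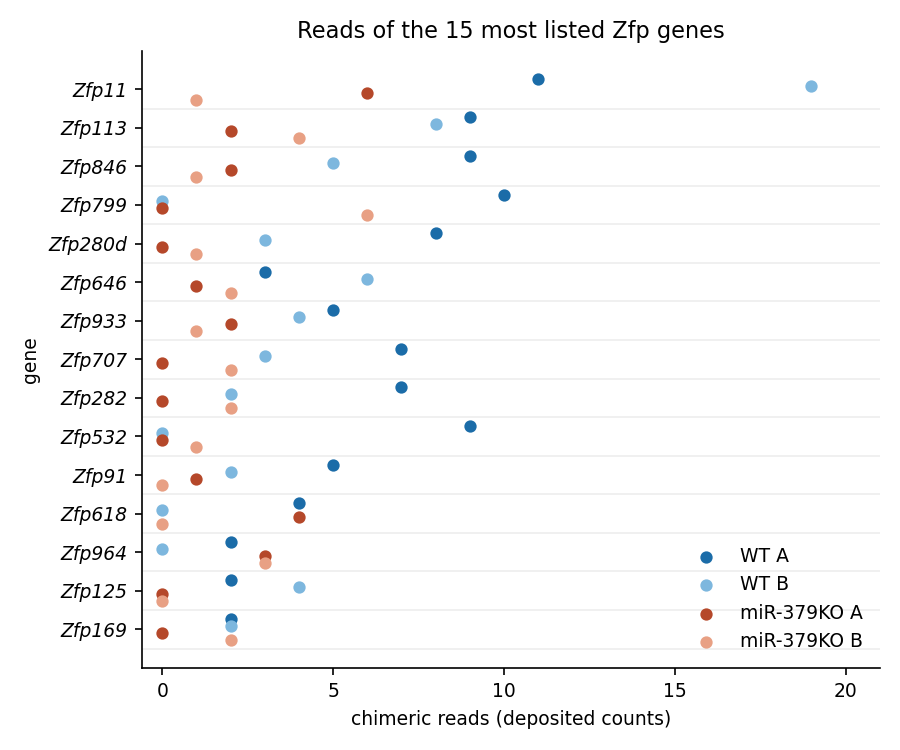
Deposited chimeric reads of the 15 Zfp genes with the most reads, 1 point per library and gene (x axis, reads; not scaled to the library totals, and WT A is the largest library). Zfp11 reaches 19 reads in WT B, and no other gene exceeds 10 in a library.

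The second group of pairings was with miR-1195, miR-706 and miR-709, again in repeats. miR-1195 had 33 Zfp reads (18, 5, 4 and 6 by library) from 31 distinct sequences, spread over 25 genes. Of the 30 target segments placed, 29 were soft-masked. miR-706 had 14 reads and miR-709 had 11, and all 11 and all 10 of their distinct segments were soft-masked. In 24 of the 31 miR-1195 reads and 10 of the 11 miR-706 reads, the miRNA segment with up to 10 nt of read on either side matched the genome without a mismatch outside miRNA hairpins (genome-contained). In miR-709 reads this held for 1 of 10. The complement of positions 2 to 7 was searched in the target segment in the sense of the transcript. It was found in 16 miR-1195 reads, 8 miR-706 reads and 10 miR-709 reads. Where the target alignment was antisense, the strand searched was opposite to the read. This was so in 5 of the 31 miR-1195, 9 of the 11 miR-706 and 1 of the 10 miR-709 reads. Each seed, that of miR-709 too, was taken from the miRNA strand of the deposited pairing.

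In Zfp707, this pairing repeated at a single place on the opposite strand. Its 12 reads were 7, 3, 0 and 2 by library. In 6 of the 9 alignments, miR-706 was joined to the same antisense segment, transcript positions 963 to 995 of a noncoding transcript. Of these 6, 5 were in WT A and 1 in WT B, and each was listed with 2 genes. Zfp964 had 2, 0, 3 and 3 reads. Of its 5 alignments, 3 were with miR-1195 and ended at position 3209 in the 3′ UTR, 2 of them in WT A and the other in miR-379KO A. Zfp280d had 8, 3, 0 and 1 reads, all listed with this gene alone. Of its 10 distinct reads, 4 were from miR-690 and 3, on the antisense strand, from miR-669a-3-3p (named after its values were seen), and 9 of the 10 lay in a noncoding transcript.

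The third pattern lay in the finger-coding sequence. miR-7027-3p had only 34 reads in all, and 17 of them (50.0%) were listed with Zfp genes, 5, 2, 4 and 6 by library. In all 14 distinct reads, the miRNA alignment was antisense and only 12 or 13 nt long. The next lines show the parts of 2 such reads, chosen with their values known (Zfp781 had 3 reads in all), the target part with the bases that encode the TGEKP linker in 1 of the 3 frames in capitals, and the part assigned to the miRNA with up to 10 nt on either side and the assigned bases in capitals.
Zfp966 target: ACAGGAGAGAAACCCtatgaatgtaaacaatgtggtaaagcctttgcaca
Zfp966 miRNA part: atacAGGAGAGAAACCCtttgaacagg
Zfp781 target: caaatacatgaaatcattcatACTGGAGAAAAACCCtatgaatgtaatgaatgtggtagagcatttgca
Zfp781 miRNA part: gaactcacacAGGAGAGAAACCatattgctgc
The target segments lie in GRCm38 at chr2:175920663-175920712 (minus strand, Zfp966, coding exon) and chr10:81905089-81905157 (minus strand, Zfp781, coding exon). Both were identical to the listed transcript. The first read was listed with 35 genes, 6 of them Zfp genes, and the second with 3 genes, of which Zfp781 was the only Zfp gene, so each place is 1 of several listed. The coding sequence counted for Zfp781 in vM21 holds 0 linkers in its annotated frame. In both reads the assigned letters closely resemble the linker in the target part.

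Read in 3 frames, the part assigned to miR-7027-3p with its flanks encoded TGEKP in 13 of the 14 distinct reads. The target segment, read in 3 frames of either strand, encoded it in 8. At least 1 of the parts did so in 14 of 14. In 9 of the 14, the extended miRNA segment had an exact place in the genome, in 8 of them inside a Zfp gene and in 6 inside a Zfp gene with which the same read was listed. Among the 17 distinct miR-7027-3p reads listed without a Zfp gene, 8 were antisense and 1 encoded TGEKP in that part. Over all miRNAs, the target segment encoded the linker in 13 of 342 distinct Zfp reads (3.801%) and in 1 of 28725 reads of other genes (0.00348%). These 13 sequences held 2, 4, 7 and 4 reads by library and made 32 read and gene pairs in 21 genes, of which 23 were in coding sequence. The linker occurred in 97 of 143 listed Zfp genes with a complete coding sequence, and a read with any Zfp listing counted as Zfp. The shares of reads with the linker are therefore a description.

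Identical stretches tied several Zfp genes to the same reads. Segments that shared a run of 25 nt on either strand fell into 13 groups that spanned 2 or more Zfp genes, together 46 genes and 99 distinct reads. The largest group held 14 genes and 70 distinct reads, 68 of them from miR-690, and was found in all 4 libraries with 42, 25, 6 and 11 reads. Its genes were Zfp113, Zfp280d, Zfp282, Zfp316, Zfp426, Zfp532, Zfp626, Zfp64, Zfp646, Zfp799, Zfp821, Zfp846, Zfp933 and Zfp990. The next was a linker segment of 9 genes, Zfp120, Zfp125, Zfp442, Zfp930, Zfp932, Zfp950, Zfp958, Zfp960 and Zfp97, from 2 distinct reads of WT B. A single WT A read joined 7 of the same genes through another linker segment. A group of 6 genes came from 7 distinct miR-1195 reads (Zfp229, Zfp668, Zfp786, Zfp799, Zfp821 and Zfp951). Another 6 genes, Zfp966, Zfp967, Zfp968, Zfp969, Zfp970 and Zfp973, came from a single read of miR-379KO B. When each read was counted with only 1 of its genes, so that a group needed different reads, 8 groups were left. In all, 12 of the 342 distinct reads were listed with several Zfp genes, at most 9, and 186 were listed with a single gene of any kind.

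Among all 342 distinct Zfp reads, 191 target segments lay in a 3′ UTR, 46 in coding sequence, 14 in a 5′ UTR and 64 in noncoding transcripts, and 27 were in transcripts absent from vM21 under that version. A segment was called repeat where more than 50% of its bases were soft-masked. All 13 distinct reads whose target segment encoded the TGEKP linker fell in this class, so it also holds finger-coding sequence. Repeat segments were 151 of the 191 in 3′ UTRs, 13 of the 46 in coding sequence, 10 of the 14 in 5′ UTRs and 56 of the 64 in noncoding transcripts. Of the 13 coding ones, 8 were miR-7027-3p reads. Coding segments were thus mostly unmasked, and the others mostly repeat.

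**Figure D3:**
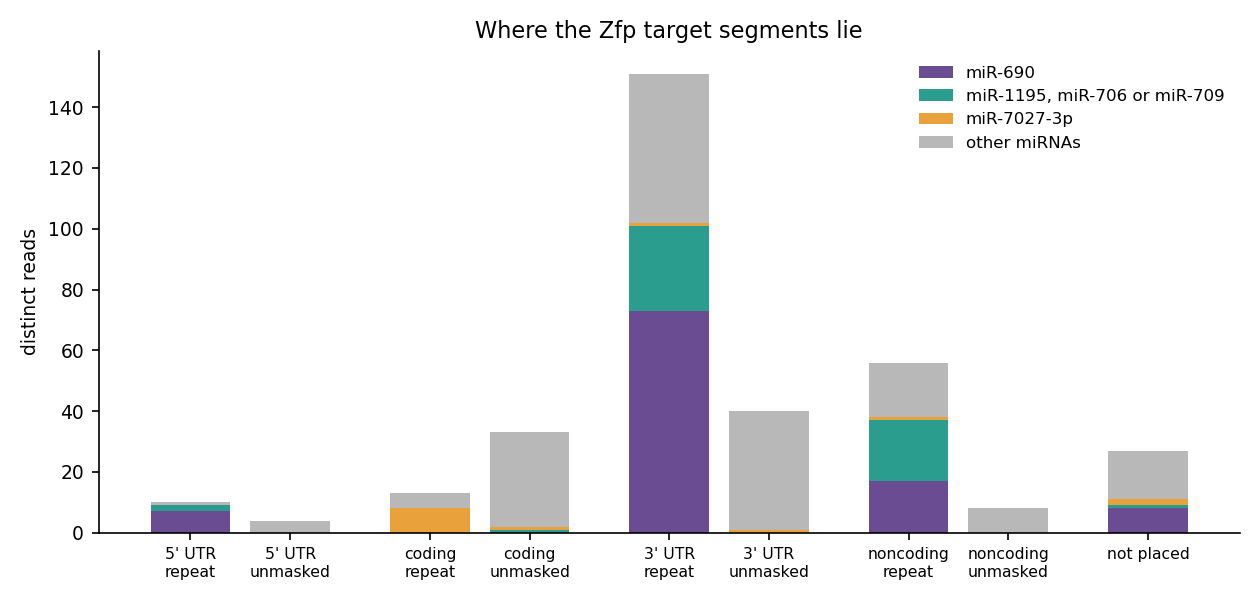
Distinct Zfp reads (y axis) by where the target segment lies in the listed transcript and whether it is soft-masked as repeat, stacked by the listed miRNA. The highest column is 3′ UTR repeat with 151 reads, 73 of them miR-690; of the 33 unmasked coding segments, 31 come from other miRNAs.

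Compared with the other target genes within each library, Zfp segments were repeats more often in 4 of 4 libraries. The shares were 70.8% against 33.6%, 75% against 24.99%, 75% against 22.5% and 76.6% against 21.95%. The mean difference was 48.6 ± 7.80 percentage points (SD, n = 4; exact sign-flip permutation p = 0.13). Without miR-690 reads it was 40.8 percentage points, and for reads listed with a single gene 26.9. The comparisons by 3′ UTR that follow were chosen after seeing the data. Zfp segments were also more often in a 3′ UTR, by 43.8 ± 11.7 percentage points. Of the other genes' segments, 18223 of 27626 lay in noncoding transcripts, and among coding transcripts alone the difference was 21.9 ± 12.1. For reads listed with a single gene these differences were 28.999 and 11.5 (p = 0.13 and p = 0.25, exact permutation). Within 3′ UTRs alone, 79.1% of Zfp segments and 48.9% of the other genes' segments were repeats, and the mean difference over libraries was 36.2 ± 11.97 percentage points (p = 0.13, exact permutation), falling to 11.5 for reads listed with a single gene, where the libraries did not all have the same direction (p = 0.5, exact permutation). By contrast, soft-masked bases were 22.5% of the 3′ UTR bases of listed Zfp genes, 19.7% of those of Zfp genes not listed and 18.7% of those of other genes.

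The alignments differed in the same direction in 4 of 4 libraries for several other properties. Target alignments were antisense in 17.6%, 6.45%, 16.3% and 8% of the Zfp reads by library, with a mean difference from other genes of -16.9 ± 4.88 percentage points, which was -9.19 for alignments of at least 16 nt. miRNA alignments were antisense in 21.9% of Zfp reads and 30.6% of the others, a mean difference of -9.71 ± 4.33, which was -2.49 without miR-690 reads (p = 0.25, exact permutation). Alignments of at least 16 nt made up 48.0% of Zfp reads and 30.3% of the others, a mean difference of 18.6 ± 3.46, which was 1.08 without miR-690 reads (p = 0.625, exact permutation) and 1.29 for reads listed with a single gene (p = 1, exact permutation). For these 3 values the libraries no longer all had the same direction. Reads listed with more than 1 gene were 45.6% of Zfp reads and 17.5% of the others, by 29.98 ± 5.52 percentage points, which was 15.4 without miR-690 reads. A read listed with many genes has more chances to include a Zfp gene, and it counted as a Zfp read if it did. With all reads, the 4 exact permutation p-values were 0.13.

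For 2 other properties the direction differed between libraries when all reads were counted. The complement of miRNA positions 2 to 7 was searched in each target segment in the sense of the transcript. For antisense alignments, this is the strand opposite to the read. The complement was in 30.1% of Zfp reads and 30.1% of the other reads. The mean difference was -0.40 ± 4.35 percentage points (p = 0.875, exact permutation, higher in 1 of 4 libraries). With the segment in the orientation of the read, chosen after seeing the data, it was 2.32 (p = 0.25, exact permutation). In the sense of the transcript, the share was lower for Zfp in 4 of 4 libraries under 3 other settings. These were alignments of at least 16 nt (mean difference -7.76), reads listed with a single gene (-3.66) and positions 2 to 8 (-7.10), each with p = 0.13 (exact permutation). miRNA segments whose flanked sequence had an exact genomic place were 43.6% of Zfp reads and 43.0% of the others (mean difference 0.0077 ± 6.34; p = 1, exact permutation). The share was higher for Zfp in 4 of 4 libraries without miR-690 reads (14.6 percentage points) and among reads listed with a single gene (12.4), each with p = 0.13 (exact permutation). Of the 149 such Zfp reads, 25 had a place inside the listed Zfp gene itself.

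**Figure D4:**
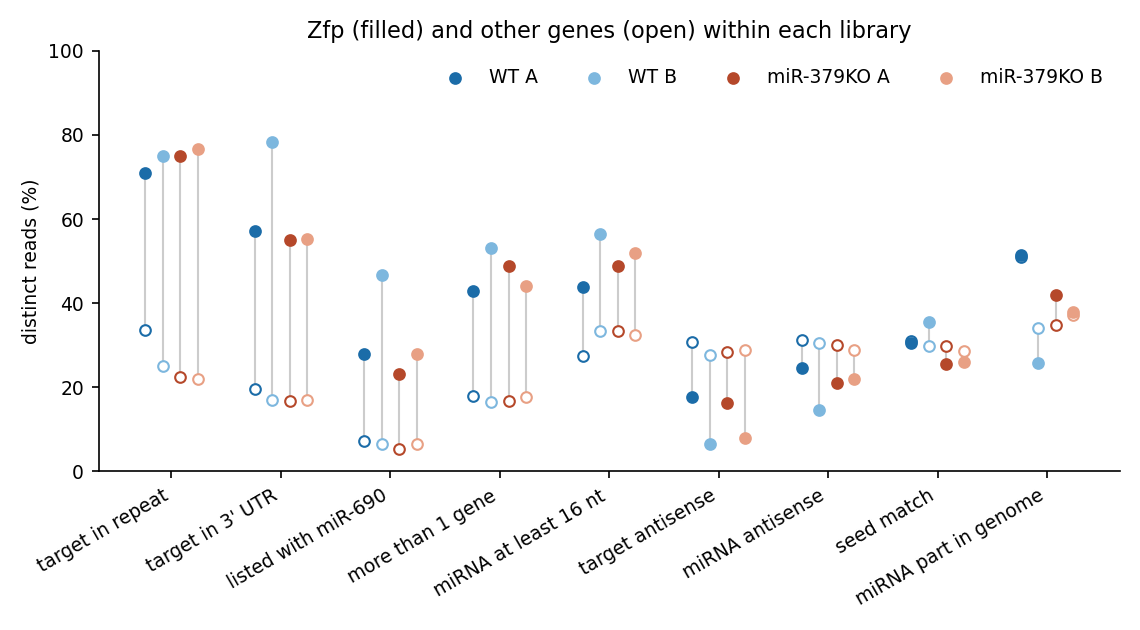
Percentage of distinct reads with each property in Zfp (filled points) and in other genes (open points), joined within each of the 4 libraries. Repeat, 3′ UTR, miR-690, multiple-gene and long-alignment shares are higher for Zfp in every library, both antisense shares are lower, and the seed-match and genome-contained shares differ in direction between libraries.

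With every Zfp listing of a read counted, 63 genes had an unmasked target segment. Outside repeats there were 85 distinct Zfp reads, 33 of them in coding sequence and 40 in 3′ UTRs. Their miRNA alignments were short, with a median of 13 nt against 18 nt in repeat reads, and only 12 were at least 16 nt long. Without the miR-690 reads, the median in repeat reads was 14 nt, and 47 of 133 were at least 16 nt long. Of the 90 read and gene pairs outside repeats, 76 segments (84.4%) were identical to the listed transcript, against 126 of 258 (48.8%) in repeats. None of the 76 had another exact genomic place, whereas 110 of the 126 in repeats had. In 52 of the 85 reads the flanked miRNA segment had an exact place in the genome.

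Among the 15 genes with the most reads, Zfp91, which encodes an E3 ubiquitin ligase with zinc fingers, and Zfp618 had mostly unmasked segments (5 of 7 and 5 of 5). Zfp91 had 5, 2, 1 and 0 reads, from 7 distinct reads, each with a different miRNA of 12 to 15 nt aligned. Zfp618 had 4, 0, 4 and 0 reads. In 3 of its 5 distinct reads, 14 nt of miR-6914-5p were joined to a coding segment that ended at position 740, in both WT A and miR-379KO A, and all 5 flanked miRNA segments had an exact genomic place.

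The conventional hybrid, a sense miRNA of at least 16 nt joined to a sense, unmasked segment, was rare. It occurred in 11 distinct reads of 10 genes with 10 miRNAs, each listed with a single gene, 5 in coding sequence, 5 in 3′ UTRs and 1 in a noncoding transcript. The genes and miRNAs named here were picked once their values were known. let-7 miRNAs were joined to Zfp445, Zfp398, Zfp106 and Zfp365, miR-145a-5p to Zfp207, miR-193a-3p to Zfp568, and miR-2137 to Zfp651. Only 1 of the 11 held the complement of positions 2 to 7. It was a single read of miR-379KO A, in which miR-24-3p was joined to the coding sequence of Zfp574. It is shown because it is the only Zfp hybrid of this kind with a seed match, with the seed of the miRNA and its complement, opposite positions 1 to 8, in capitals.
miR-24-3p: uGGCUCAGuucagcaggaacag
Zfp574 target: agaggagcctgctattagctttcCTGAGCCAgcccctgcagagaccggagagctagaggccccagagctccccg
The segment lies at chr7:25080844-25080917 on the plus strand of GRCm38 and was identical to the transcript. The deposited minimum free energy of this pair was -18.1, against a median of -21.1 for unmasked and -23.5 for repeat segments of Zfp genes.

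The comparison of genotypes asked which hybrids change when miR-379 is deleted. miR-379 itself was listed with 0 Zfp reads in the WT libraries as in the knockout libraries. A miRNA with few chimeric reads can also give 0, so this is not read as a lack of pairing. Zfp reads per 10000 chimeric reads numbered 124 for WT A (exact 95% Clopper-Pearson limits 108 and 143) and 129 for WT B (limits 104 and 158). For miR-379KO A the value was 90.1 (limits 68.3 and 117), and for miR-379KO B it was 88.0 (limits 66.7 and 114). The intervals cover counting error only. Both WT libraries were above both miR-379KO libraries, with 127 ± 3.50 against 89.1 ± 1.48 (mean ± SD, n = 2 each), a difference of 37.8. The exact two-sided permutation test gave p = 0.33, the smallest value that 2 against 2 libraries allow.

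The split of that difference between miR-690 and other miRNAs depended on the WT library. With miR-690, Zfp reads were 35.5, 63.96, 18.97 and 23.2 per 10000 by library, and the groups did not overlap (difference 28.7; exact permutation p = 0.33). With other miRNAs they were 88.8, 65.4, 71.1 and 64.9, and the groups overlapped (difference 9.09; exact permutation p = 0.67). Without WT B, the miR-690 part of the difference was 14.5 and the other part 20.8. Without WT A, they were 42.9 and -2.64. miR-690 reads of other genes were 712, 670, 536 and 636 per 10000, also without overlap between genotypes. Leaving miR-690 reads out of both parts of the share gave a difference of 10.9 in place of 37.8, which was 23.6 without WT B and -1.85 without WT A. Reads listed with a single gene gave 17.2.

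**Figure D5:**
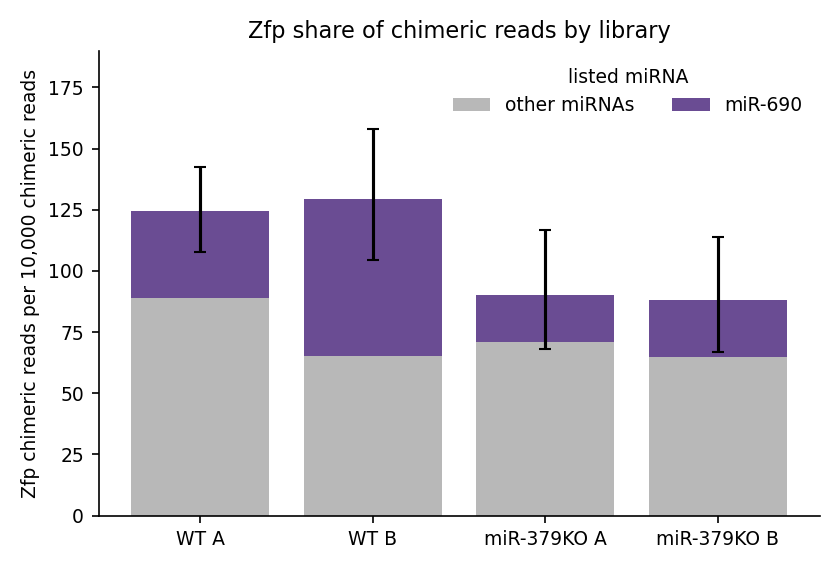
Zfp reads per 10000 chimeric reads in each library, stacked by whether the read was listed with miR-690 (purple) or another miRNA (grey); bars on top are 95% Clopper-Pearson intervals of the total. The totals of both WT libraries (124 and 129) exceed those of both miR-379KO libraries (90.1 and 88.0), and the grey parts overlap.

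No single Zfp gene passed the threshold between genotypes in the test over all genes. edgeR's quasi-likelihood test was run on the 686 target genes with at least 10 reads, of which 10 were Zfp genes. With the Benjamini-Hochberg adjusted p under 0.05, 0 of the 10 were called, against 0% of all genes tested, and at an unadjusted p under 0.05 also 0 of the 10, against 3.64% of all genes. DESeq2 called 0 as well. The smallest edgeR adjusted p of a Zfp gene was 0.964, and the largest log2 ratio of WT over miR-379KO was that of Zfp280d, 2.28 ± 1.599 (SE). The lowest was that of Zfp799, and the median over all 686 genes was 0.25. Zfp532, Zfp280d, Zfp707 and Zfp282 reached the minimum of 10 reads mostly through the WT libraries, in which they were higher, so no count or median over the 10 is read as a shift. The 10 genes are not independent, since 9 of them had miR-690 reads from like repeat copies. With no minimum count, all 144 members were tested, 0 were called and 1 had an unadjusted p under 0.05, against 0% and 0.581% of all 8440 genes, which is near the background.

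Most members were seen only a few times. A single read was found for 63 of the 144 genes, 2 to 4 reads for 58, 5 to 9 for 13 and at least 10 for 10. Only 8 genes were found in all 4 libraries, and 89 in 1. There were 77 genes found only in WT (53.5%), 27 only in miR-379KO (18.75%) and 40 in both (27.8%). Over all 8440 target genes these shares were close to that, at 50.8%, 18.2% and 31.04%. Zfp genes were listed with 149 of 1643 miRNAs, 97 of these by a single read. Summed over all pairs of libraries, 1 Zfp sequence was found in both libraries of a pair, against 1105 sequences over all genes.

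Genes that work with these proteins were also listed. Of 19 cofactors of KRAB zinc finger proteins, 12 were listed, with 40, 11, 8 and 7 reads by library. Atrx, a chromatin remodeller, led with 12 reads, Atf7ip, a partner of the histone methyltransferase SETDB1, had 11, and Trim28 itself had 1. The 2 of them that were tested, Atrx and Atf7ip, were not called (log2 ratios 1.11 ± 1.45 and 1.08 ± 1.47; edgeR adjusted p = 0.964 for both). C2H2 genes with other names, chosen by symbol, gave 52 genes and 136 reads, led by Zbtb49 with 11 and Zbtb20 with 10. Neither of these was called by edgeR (adjusted p = 0.970 for both). That list went by symbol alone and also took in members that are not C2H2 genes, such as Sp100, Sp110, Zbtb8os and Znfx1, and the pseudogene Znf41-ps.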

How the data were processed

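AGO2-CLASH libraries of WT and miR-379KO MMC (A and B of each) were grouped by the genotype label. The authors merged read pairs and used Bowtie2 2.1.0 to remove those that matched the genome (GRCm38.p5) or transcripts. They searched the rest with blastn against mature miRNAs and mRNAs, and deposited, for each distinct chimeric read, its read count, the positions of its miRNA and transcript alignments, a pairing score and a minimum free energy with no unit named. Counts carry no molecular identifiers. A read listed in several rows was used once per gene and library, by its longest alignments. In comparisons with other genes, a read with any Zfp listing counted as a Zfp read. Its longest alignments among the Zfp listings then represented it.

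Regions came from GENCODE vM21 transcripts of the same version, and soft-masking and exact matches from GRCm38.p6. A genome-contained miRNA segment matched the genome without mismatch together with up to 10 nt of read on either side. Counts per gene (at least 10 reads) were tested with edgeR 4.0.16 (quasi-likelihood, TMM, Benjamini-Hochberg) and DESeq2 1.42.0 in R 4.3.3. Shares were tested with exact permutation tests in SciPy 1.17.1, and intervals are 95% Clopper-Pearson. The scripts were tested on simulated data. Members and lists were chosen with earlier results of these data known. Named genes were the 15 with the most reads, those passing a threshold and those of the 5 largest recurring groups. Named miRNAs were the 10 with the most Zfp reads, and miR-379. Exceptions are stated. Alternatives covered counting, alignment length, orientation, single-gene reads, normalization and each library left out.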

Additional observations from a re-analysis of the deposited data

How the results depend on the processing

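With 2 libraries per genotype and 4 in all, the exact permutation tests could not go below p = 0.33 and 0.13, so no alternative could change their side of 0.05. Zfp genes called were 0 under all 13 alternatives (12 with edgeR and 1 with DESeq2), but only 2 Zfp genes could be tested without WT A, 5 without WT B, 5 with alignments of at least 16 nt and 1 with single-gene reads. Of all genes tested, 1 of 353 was called with alignments of at least 16 nt, 1 of 208 with single-gene reads, and 0 under the other 11. With the replicate block (letters A and B), 0 Zfp genes were called and 14 of 686 genes had an unadjusted p under 0.05, against 25 without it. The labels state no pairing, and deviations of libraries with the same letter had a correlation of -0.06 over genes. With the letters crossed, chosen after seeing the data, 0 were called and 18 had an unadjusted p under 0.05. DESeq2 called 0, with 8 genes at an unadjusted p under 0.05. The WT minus miR-379KO difference in Zfp reads was 10.9 without miR-690 reads, and then -1.85 without WT A and 23.6 without WT B (chosen after seeing the data). Otherwise it ran from 17.2 (single-gene reads) to 72.8 (alignments of at least 16 nt), and from 35.3 to 40.2 when 1 library was left out.

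The seed-match difference, -0.40, turned to 0.22 without miR-690 reads and to 2.32 with the segment in the orientation of the read, both chosen after seeing the data, and ranged from -2.43 to 0.88 when 1 library was left out. It was -7.10 for positions 2 to 8, -7.76 for alignments of at least 16 nt and -3.66 for single-gene reads. The genome-contained difference ranged from -2.35 to 2.79 when 1 library was left out, and was 12.4 for single-gene reads and 14.6 without miR-690 reads. The 13 recurring groups became 8 when each read was counted with only 1 of its genes. The causes were not tested. The other differences between Zfp and other genes kept their direction under the alternatives run. Depth limits single genes, most of which had fewer than 5 reads.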
